A study of Mus musculus with 16 samples.

Results

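Amino acid transporters are the membrane proteins through which T cells take up the building blocks of protein synthesis. The 7 transporter genes described here are Slc7a5, Slc3a2, Slc7a1, Slc7a11, Slc38a2, Slc1a5 and Slc7a6, chosen by symbol with earlier results of these data known. All 7 had a probe set listed with that symbol alone, and they are 7 of 22180 genes tested. They were measured in CD8 T cells from the spleens of female C56BL/6 bone marrow chimeras that all carried transplanted leukaemia cells of Eµ-TCL1 mice, a model of chronic lymphocytic leukaemia (CLL). The 4 groups of 4 samples were effector cells of Il4i1 knockout (KO) chimeras, effector cells of wild-type (WT) chimeras, memory cells of KO chimeras and memory cells of WT chimeras, all taken 5 weeks after the leukaemia transplantation. Effector cells were gated as CD44 positive and CD127 negative, and memory cells as high for both markers. In a bone marrow chimera the deletion lies in cells that descend from the donor marrow. The labels name neither the recipients' genotype nor the ages, and they do not say whether samples of 1 group were separate animals, so p-values may measure technical spread only. Effector and memory samples of 1 genotype and number may come from the same animal, which the labels do not say either. No group was free of leukaemia, so each comparison was made within leukaemia-bearing mice.

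Il4i1 encodes a secreted oxidase that uses up phenylalanine, tyrosine and tryptophan. Slc7a5 (LAT1) carries these aromatic amino acids, together with leucine and other large neutral amino acids, across the plasma membrane. It works as a pair with the glycoprotein chain Slc3a2 (CD98 heavy chain), which brings it to the surface. The same heavy chain also pairs with Slc7a6, which exchanges cationic for neutral amino acids, and with Slc7a11, which brings in cystine in exchange for glutamate. Slc7a1 takes up arginine and lysine by itself, Slc38a2 takes up small neutral amino acids with sodium, and Slc1a5 exchanges glutamine and other neutral amino acids. Activated T cells are known for raising several of these transporters, and ATF4, the transcription factor of the amino acid shortage response, is known to act on Slc7a11 and Slc7a5 among others.

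Of the 7 genes, RefSeq's table for build GRCm38.p6 held promoter sequence for 5 (250 bases before to 50 bases after a gene start). A pair of motifs was searched on both strands. CACGTG is the E-box that Myc binds with Max, and TGATGNAA is the core of the amino acid response element that ATF4 binds with C/EBP factors. TGATGNAA was found in the Slc7a11 promoter at 2 places, with first bases 66 and 47 bases before the start listed for that window and the second on the opposite strand. That start lies inside the span given for the gene (chr3:50364936-50499087), so it is not the outermost start of Slc7a11. Of all 32851 promoters in the table, 3.97% held the motif at least once. Neither motif was found in the promoter windows of Slc3a2, Slc7a1, Slc38a2 or Slc7a6, and 7.15% of all promoters held CACGTG. The Slc7a11 window is shown because it holds both matches, in capitals, and the upstream of the 2 listed Slc7a1 windows is shown beside it because Slc7a1 is 1 of the genes that differed between the subsets. The windows are read on the minus strand, from chr3:50443564-50443863 and from chr5:148399855-148400154.
Slc7a11: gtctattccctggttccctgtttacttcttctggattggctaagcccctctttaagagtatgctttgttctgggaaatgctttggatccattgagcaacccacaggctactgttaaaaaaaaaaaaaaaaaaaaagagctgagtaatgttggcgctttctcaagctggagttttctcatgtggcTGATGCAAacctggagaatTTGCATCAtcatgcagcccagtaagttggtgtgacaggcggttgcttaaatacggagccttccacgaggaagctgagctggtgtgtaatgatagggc
Slc7a1: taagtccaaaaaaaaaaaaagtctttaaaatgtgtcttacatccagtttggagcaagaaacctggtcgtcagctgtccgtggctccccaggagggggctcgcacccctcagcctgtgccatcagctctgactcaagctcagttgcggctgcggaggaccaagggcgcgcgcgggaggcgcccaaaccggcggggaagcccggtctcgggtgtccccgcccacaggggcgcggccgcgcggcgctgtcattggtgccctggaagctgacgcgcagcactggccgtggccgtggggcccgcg

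Values are log2 expression on 1-colour Affymetrix arrays, so a difference of 1 is a doubling of signal, and levels are compared between samples for 1 gene and never between genes. The array medians over all probe sets lay between 4.12 and 4.22. T cell and CD8 genes were bright in all groups, with Cd3e between 11.48 and 12.03, Cd8a between 9.72 and 10.30 and Cd8b1 between 11.23 and 11.86. Il7r, which encodes the gate marker CD127, lay at 5.00 to 6.60 in effector KO and 3.83 to 4.46 in effector WT, against 10.94 to 11.27 in memory KO and 10.29 to 10.96 in memory WT. Its rise in effector KO over effector WT passed the test (1.65, limma adjusted p = 0.0183). The genotype labels could not be checked on expression of Il4i1, because its probe set is listed with other genes as well. Array effector KO 4 correlated with the others at 0.965 to 0.974 over all genes, while all other pairs lay between 0.971 and 0.994. In sorted bulk RNA, a lower value from fewer cells that express a gene and one from less RNA per cell cannot be told apart.

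Slc1a5 was the transporter with the clearest differences, both by genotype and by subset. Its values were 9.51, 9.82, 9.65 and 9.82 in effector KO, against 10.14, 10.05, 10.06 and 10.08 in effector WT. In memory cells they were 9.38, 9.39, 9.33 and 9.44 in KO, against 9.73, 9.63, 9.57 and 9.81 in WT. All KO values lay under all WT values of the same subset, in effector and in memory cells alike. Such a gap with KO lower was found for 1.94% of all genes in effector cells, 3.37% in memory cells and 0.293% in both subsets, or 65 genes. Over both subsets Slc1a5 fell by 0.34 on the log2 scale (SE 0.06, 95% interval -0.47 to -0.21, n = 8 and 8, limma adjusted p = 0.032), which is 1.27-fold lower in KO. It ranked at place 34 of all genes by p in that comparison, where 0.113% of genes passed as lower.

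Within one subset the fall of Slc1a5 was of like size and did not pass. It was -0.38 ± 0.09 in effector cells (SE, n = 4 and 4, limma adjusted p = 0.285) and -0.30 ± 0.09 in memory cells (adjusted p = 0.216). The exact two-sided permutation p was 0.0286 in each, the smallest that 4 samples against 4 can give. Over both subsets, with labels permuted within each subset, it was 0.000408, again the smallest the design allows. That count of arrangements treats effector and memory samples of a number as separate. With both subsets of a number averaged into 1 value, 4 KO values against 4 WT values gave an exact p of 0.0286, and with such pairs as a random block in limma the adjusted p was 0.0418. The difference between the 2 effects was -0.08 (95% interval -0.35 to 0.18, adjusted p = 0.936), and a larger effect in 1 subset was not shown.

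Slc1a5 was also higher in effector than in memory cells, by 0.36 ± 0.06 (SE, n = 8 and 8, limma adjusted p = 0.00106), or 1.28-fold. The gap was 0.31 in KO and 0.40 in WT. The 4 group means therefore ran from effector WT (10.08 ± 0.04, SD) over effector KO (9.70 ± 0.15) and memory WT (9.68 ± 0.11) to memory KO (9.39 ± 0.05). The neighbours effector KO and memory WT overlap throughout (9.51 to 9.82 against 9.57 to 9.81), while the highest and the lowest group overlap with no other.

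Several facts stand beside the Slc1a5 result. The gene has a second probe set with a mean of 5.42, against 9.71 for the first, and that probe set did not follow the first. It read 5.30, 5.41, 5.35 and 6.57 in effector KO, against 5.15, 5.14, 5.16 and 5.17 in effector WT. In memory cells it read 5.38, 5.71, 5.34 and 5.65 in KO, against 5.03, 5.64, 5.33 and 5.35 in WT. On this dimmer probe set KO was higher, by 0.34 over both subsets (limma adjusted p = 0.345), and with both probe sets averaged the genotype difference was 0.00 (adjusted p = 0.996) and the subset difference 0.17 (adjusted p = 0.34). The adjusted p of the brighter probe set stayed under the threshold in only 5 of the 16 fits that left out 1 array (range 0.0158 to 0.0925), while the difference itself stayed between -0.36 and -0.31. Those 5 fits were the ones without effector KO 2, effector KO 4, memory KO 2, memory KO 3 or memory WT 3. Leaving out any of the other 11 arrays, all 4 of effector WT among them, took the adjusted p over 0.05.

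**Figure D1:**
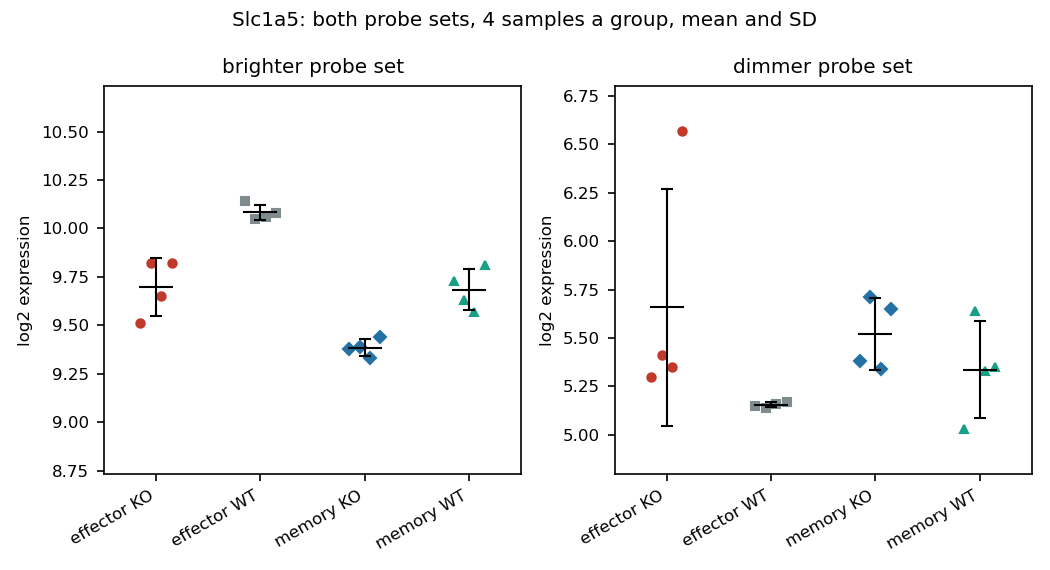
Log2 expression of the brighter and the dimmer Slc1a5 probe set in each of the 4 groups; points are samples, bars the mean and SD of 4. On the brighter set both KO groups lie under the WT group of their subset; on the dimmer set effector KO 4, at 6.57, stands above all other samples.

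Slc1a5 lies on chromosome 7 (GRCm38.p6, chr7:16781334-16798274), 28 Mb from Il4i1 on the same chromosome. Of the 43 genes that passed in KO against WT over both subsets, 20 lie on chromosome 7, which holds 8.86% of the tested genes with a known place. The part of linkage to the targeted locus in the Slc1a5 difference was not tested. The other 6 transporter genes lie on other chromosomes of the same build, Slc7a5 at chr8:121881146-121907686, Slc7a6 at chr8:106168219-106198714, Slc3a2 at chr19:8706882-8723369, Slc7a1 at chr5:148327410-148399904, Slc7a11 at chr3:50364936-50499087 and Slc38a2 at chr15:96687392-96699728. B and CLL cell markers had list means of 4.61 to 4.84 in effector KO and 4.50 to 4.67 in effector WT, and of 5.09 to 5.60 in memory KO and 5.51 to 6.22 in memory WT. The list median of KO against WT was 0.07 in effector cells and -0.51 in memory cells. The list holds 16 measured genes, of which 7 had a mean above the median of all genes. In effector KO 11 were higher and 5 lower, and in memory KO 2 were higher and 14 lower. Of the 16, Cd22 passed in memory KO (-1.04, limma adjusted p = 0.0145), and 0 passed in effector KO. How far B and CLL cells had a part in the Slc1a5 difference was not tested.

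Other lists also read differently in KO and WT. Platelet markers had list means of 5.03 to 5.25 in effector KO and 5.09 to 5.77 in effector WT, and of 5.05 to 5.60 in memory KO and 5.45 to 5.91 in memory WT. Over both subsets all 8 measured platelet genes were lower in KO, with Ppbp, a platelet chemokine gene, at -0.91 (limma adjusted p = 0.149). NK cell markers had list means of 7.07 to 7.71 in effector KO and 6.91 to 7.16 in effector WT, and of 7.39 to 8.02 in memory KO and 7.15 to 7.50 in memory WT, with 5 of 8 genes higher and 3 lower in KO over both subsets. CD4 T cell list means were 5.39 to 5.78 in effector KO and 5.61 to 5.72 in effector WT, and 5.08 to 5.59 in memory KO and 5.62 to 5.86 in memory WT. Of 4 measured erythroid genes 3 were higher and 1 was lower in KO over both subsets. Over both subsets 0 genes of these marker lists passed, and their part in the Slc1a5 difference was not tested.

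**Figure D2:**
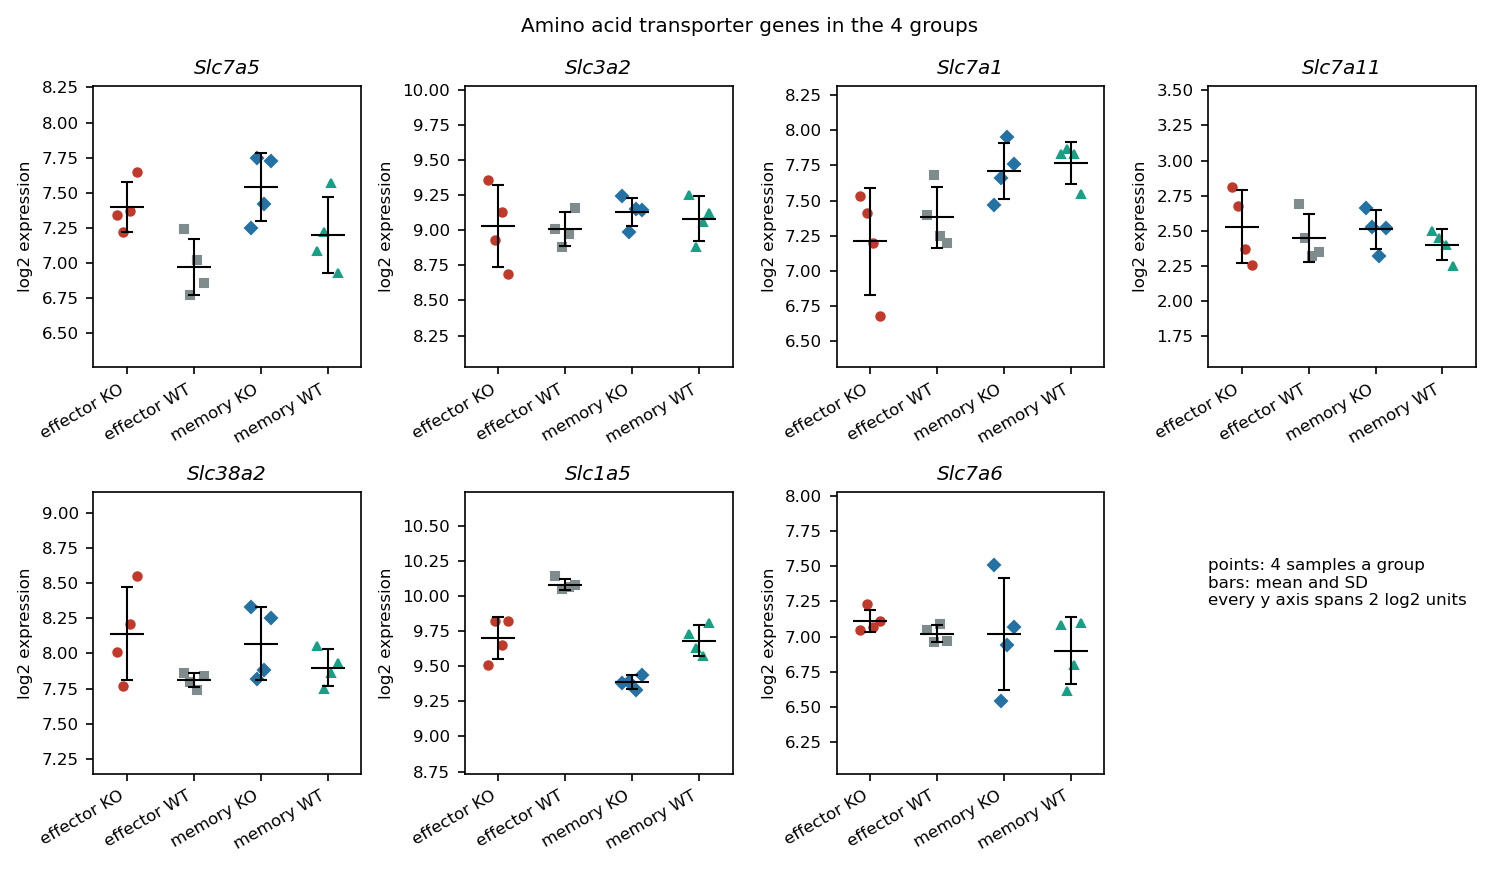
Log2 expression of each of the 7 transporter genes by group; points are the 4 samples of a group, bars the mean and SD, and every vertical axis spans 2 log2 units. Slc1a5 is lower in KO within both subsets, Slc7a1 is lower in effector than in memory cells, and within each subset the KO and WT groups of the other 6 genes overlap.

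Slc7a5, the chain that carries the aromatic amino acids, had 7.34, 7.22, 7.37 and 7.65 in effector KO, against 7.24, 6.77, 7.02 and 6.86 in effector WT. In memory cells it had 7.25, 7.75, 7.42 and 7.73 in KO, against 7.09, 7.22, 7.57 and 6.93 in WT. In effector cells only KO 2, at 7.22, lay under the highest WT sample, and in memory cells KO 1 and KO 3 lay within the WT range. The difference was 0.42 ± 0.15 in effector cells (SE, limma adjusted p = 0.472) and 0.33 ± 0.15 in memory cells (adjusted p = 0.429). Over both subsets it was 0.38 ± 0.11 (95% interval 0.15 to 0.61, exact permutation p = 0.00653), with a limma adjusted p of 0.134 over all genes, at rank 486 by p. That exact p treats effector and memory samples of a number as separate. With both averaged into 1 value it was 0.0286, as for Slc1a5, and with such pairs as a random block the limma adjusted p was 0.159. The difference did not pass, and without effector KO 4 it was 0.33 (adjusted p = 0.216).

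The effect of genotype on Slc7a5 differed between subsets by 0.09 (95% interval -0.37 to 0.55, limma adjusted p = 0.964). Effector and memory cells differed by -0.19 ± 0.11 (adjusted p = 0.342). The order of group means was memory KO (7.54 ± 0.24, SD), effector KO (7.40 ± 0.18), memory WT (7.20 ± 0.27) and effector WT (6.97 ± 0.20), and each group overlapped with its neighbours.

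Slc3a2, the heavy chain that Slc7a5, Slc7a6 and Slc7a11 need, had the smallest difference of the 7 between KO and WT over both subsets (0.04). It had 9.36, 8.93, 9.13 and 8.69 in effector KO, against 9.01, 8.88, 8.97 and 9.16 in effector WT. In memory cells it had 9.24, 8.99, 9.15 and 9.14 in KO, against 9.25, 8.88, 9.06 and 9.12 in WT. The ranges overlapped in both subsets, with differences of 0.02 (95% interval -0.25 to 0.29, limma adjusted p = 0.97) in effector and 0.05 (-0.22 to 0.32, adjusted p = 0.924) in memory cells. Effector cells differed from memory cells by -0.09 ± 0.09 (adjusted p = 0.646). Effector KO 4 had the highest Slc7a5 value of the effector arrays and the lowest Slc3a2 value of all 16, and effector WT 4 had a low Slc7a5 and the highest Slc3a2 of its group.

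**Figure D3:**
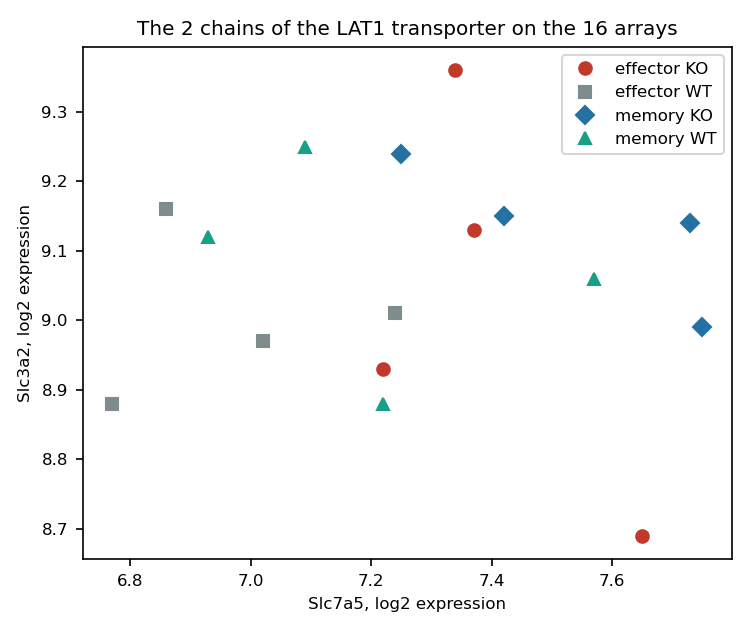
Slc7a5 against Slc3a2, both as log2 expression, in each of the 16 samples by group. KO samples lie between 7.22 and 7.75 on the Slc7a5 axis and WT samples between 6.77 and 7.57, and on the Slc3a2 axis all 4 groups overlap.

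Slc7a6, the other light chain for neutral and cationic amino acids, had 7.05 to 7.23 in effector KO and 6.96 to 7.09 in effector WT. Its spread was wider in memory cells, at 6.54 to 7.51 in KO and 6.61 to 7.10 in WT. Differences were 0.10 ± 0.16 in effector and 0.12 ± 0.16 in memory cells (SE, limma adjusted p = 0.874 and 0.841). Slc7a11, the cystine light chain whose promoter window is printed above, lay under the array median on all 16 arrays. It had 2.26 to 2.81 in effector KO, 2.32 to 2.69 in effector WT, 2.32 to 2.66 in memory KO and 2.25 to 2.50 in memory WT. With no background level or detection call in the values, these numbers do not show whether its transcript was present, and its differences of 0.08 and 0.11 (adjusted p = 0.871 and 0.81) carry that limit. On a second Slc7a11 probe set, with a mean of 2.18, the differences were 0.03 and -0.02.

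Slc7a1, the carrier of arginine and lysine, fell in effector cells relative to memory cells, by 0.44 on the log2 scale (SE 0.12, n = 8 and 8, limma adjusted p = 0.0195), or 1.36-fold. It had 7.53, 7.41, 7.20 and 6.68 in effector KO and 7.40, 7.68, 7.25 and 7.20 in effector WT. In memory cells it had 7.47, 7.66, 7.95 and 7.76 in KO and 7.83, 7.87, 7.83 and 7.55 in WT. Effector KO 4, at 6.68, was the lowest of all, and the highest effector values reached into the memory range. The gap was -0.50 in KO and -0.38 in WT. Without effector KO 4 it was -0.35 (adjusted p = 0.0181), and the call stood in all 16 fits that left out 1 array (highest adjusted p 0.0454). KO and WT differed by -0.18 in effector cells (adjusted p = 0.752), where the difference without effector KO 4 was 0.00, and by -0.06 in memory cells (adjusted p = 0.932).

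Effector against memory was by far the wider comparison. In it 12.2% of all genes passed, 5.05% higher and 7.11% lower in effector cells, beside 2 of the 7 transporters, Slc1a5 higher and Slc7a1 lower. In KO against WT over both subsets 0.194% of all genes passed, beside 1 of 7, Slc1a5. In effector cells alone 0.0541% and in memory cells alone 0.113% of genes passed, and 0 of the 7 did. At an unadjusted p under 0.05 there were 3 of 7 in effector cells (Slc7a5, Slc38a2 and Slc1a5) and 2 of 7 in memory cells (Slc7a5 and Slc1a5), beside 9.32% and 11.3% of all genes. Over both subsets there were 3 of 7 (Slc7a5, Slc38a2 and Slc1a5), beside 13.9%. For the difference of the KO effects between subsets 0% of genes passed, while 5.84% of genes and none of the 7 had an unadjusted p under 0.05. For Slc7a1 that difference was -0.12 (95% interval -0.61 to 0.38), for Slc38a2 0.16 (-0.29 to 0.60) and for Slc7a6 -0.02 (-0.50 to 0.45).

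**Figure D4:**
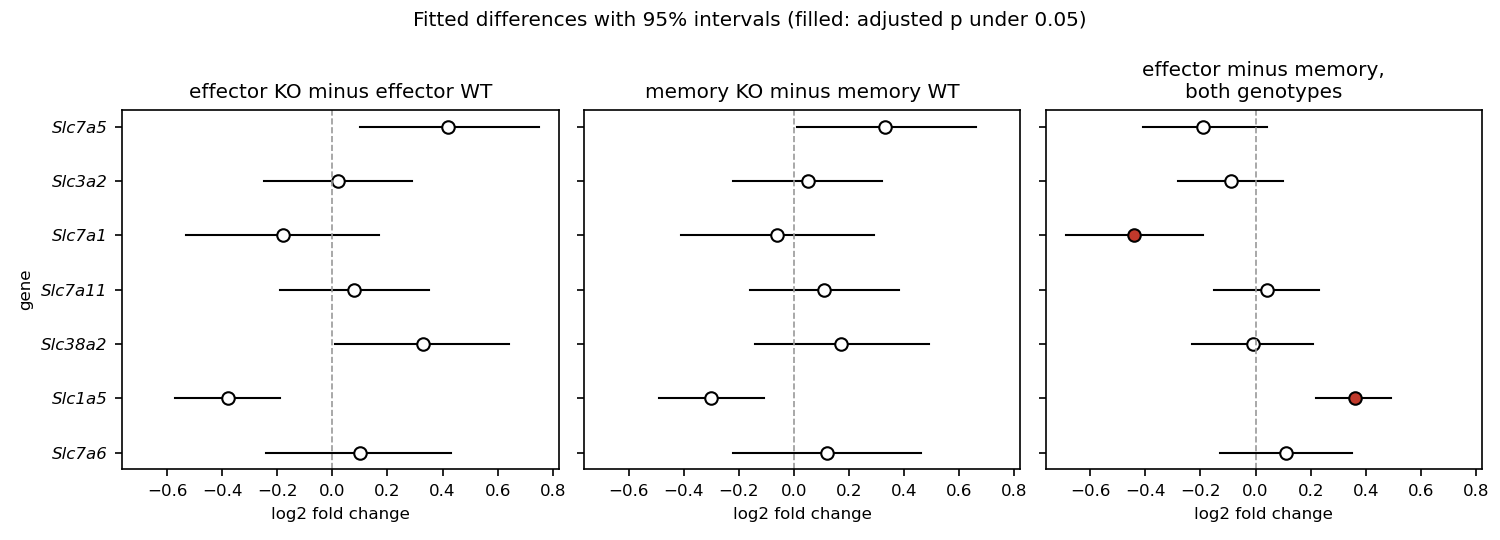
Fitted log2 fold changes of the 7 genes with 95% intervals, for KO minus WT in effector and in memory cells and for effector minus memory over both genotypes; filled points passed an adjusted p of 0.05 over all genes. Slc7a1 (-0.44) and Slc1a5 (0.36) are filled in the last panel, and none is filled in the other panels.

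Slc38a2, the sodium-coupled carrier of small neutral amino acids, had 8.01, 7.77, 8.21 and 8.55 in effector KO, against 7.86, 7.80, 7.74 and 7.84 in effector WT. In memory cells it had 8.33, 7.82, 7.88 and 8.25 in KO, against 8.05, 7.75, 7.86 and 7.93 in WT. KO 2 in effector cells and KO 2 and KO 3 in memory cells lay within the WT range, and the other KO samples stood above it. The difference was 0.33 ± 0.15 in effector cells (SE, limma adjusted p = 0.527; 0.19 without effector KO 4) and 0.17 ± 0.15 in memory cells (adjusted p = 0.716). Effector and memory cells differed by -0.01 (95% interval -0.23 to 0.21, adjusted p = 0.97).

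The genes whose values ran most like those of each transporter were found by Pearson's r over the 16 arrays, among genes brighter than the median gene, as a description. The arrays share their group differences, so r was also taken over deviations from the group means. For Slc7a1 the top genes were Ppa1, an inorganic pyrophosphatase (r = 0.947), Pccb, of propionyl-CoA carboxylase (0.929), the splicing gene Sf3b3 (0.928), Cad, which starts pyrimidine synthesis (0.927), and Srm, the spermidine synthase (0.919). Their r over deviations from group means was 0.856 to 0.919, so they followed Slc7a1 within groups as well as between them. They were picked from 10432 genes by r over these same arrays, which in part sets a high r over deviations as well. Effector KO 4 had the lowest Slc7a1 value, at 6.68, and r without that array was not taken. For Slc1a5 the top genes were the glycosyltransferase gene Galnt2 (0.908), Sytl3 (0.884), Zfp948 (0.879), Trerf1 (0.868) and Zbtb1 (0.866). Here r over deviations was only 0.051 to 0.575, so the likeness lay mostly in the 4 group means.

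For Slc3a2 the nearest genes were the ornithine carrier Slc25a15 (0.877) and Ngdn (0.873). For Slc38a2 they included the interferon-inducible gene Ifi214 (0.869) and Ddit3 (0.824), which encodes CHOP, a transcription factor induced through ATF4. Ddit3 had group means of 8.05 in effector KO, 7.44 in effector WT, 7.80 in memory KO and 7.53 in memory WT, and it did not pass between KO and WT (0.44 over both subsets, limma adjusted p = 0.15). For Slc7a5 the highest was Rapgef3 (0.849), and Slc3a2, its partner chain, was at -0.09 and at -0.38 over deviations.

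A list of 48 other measured genes of amino acid transporter families held 18 with a mean above the median of all genes. Of the 48, 1 rose and 5 fell in effector against memory cells. Together they are 12.5% of the list, near the 12.2% of all genes that passed. Slc36a1, a proton-coupled carrier of small amino acids in the lysosome, rose by 0.59 ± 0.11 (SE, limma adjusted p = 0.00219). It had means of 7.14 in effector KO and 7.14 in effector WT, against 6.52 in memory KO and 6.58 in memory WT. Of the 5 that fell, Slc43a1 (LAT3), which carries large neutral amino acids, was at -0.54 ± 0.14 (adjusted p = 0.0201), and Slc7a8 (LAT2), a light chain that also pairs with Slc3a2, was at -0.57 ± 0.16 (adjusted p = 0.03) on a signal above the array median on 6 of 16 arrays. Slc36a4, known to carry proline and tryptophan, was at -0.37 ± 0.08 (adjusted p = 0.00371), the taurine carrier Slc6a6 at -0.36 ± 0.11 (adjusted p = 0.0443) and Slc6a19 at -0.70 ± 0.11 (adjusted p = 0.000413), the last above the median on 7 arrays. The median of these 48 genes was 0.01, as for all genes.

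Between KO and WT 0 of the 48 passed with limma in either subset or over both, and 3, 5 and 4 had an unadjusted p under 0.05 in effector cells, in memory cells and over both. These counts are near or under the shares of all genes (9.32%, 11.3% and 13.9%). Slc15a3, a lysosomal carrier of histidine and peptides, was nearest. It had a mean of 5.01 in memory KO against 5.92 in memory WT (-0.91 ± 0.20 SE, limma adjusted p = 0.0949). In the same comparison Slc43a3, listed here as a member of the Slc43 family, was at -0.75 ± 0.29 (adjusted p = 0.345). Slc7a7, a light chain partner of Slc3a2, was at -0.65 ± 0.21 there (adjusted p = 0.25). Myeloid markers had list means of 5.41 to 6.11 in memory KO and 5.65 to 6.17 in memory WT, with 4 of 17 measured higher and 13 lower in KO. The part of other cells in these differences was not tested.

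Of 39 measured genes that sense amino acids upstream of the growth kinase mTORC1 or belong to it, 2 rose and 9 fell in effector cells, with a median of -0.04 against 0.01 for all genes. These are 28.2% of the list, beside 12.2% of all genes. Of the 39, 37 had a mean above the median of all genes, and brighter genes passed at a higher share than 12.2%. No excess over genes of like signal was shown. The arginine sensor gene Castor1 was at -0.81 ± 0.14 (SE, limma adjusted p = 0.00122), with means of 6.29 in effector KO and 5.88 in effector WT, against 7.09 in memory KO and 6.70 in memory WT. Sesn1, a leucine sensor of the sestrin family, was at -0.82 ± 0.23 (adjusted p = 0.0253), Eif4ebp1, a translation inhibitor that mTORC1 switches off, at -0.70 ± 0.14 (adjusted p = 0.00354), and Rptor, the defining subunit of mTORC1, at -0.37 ± 0.09 (adjusted p = 0.0125). The 2 that rose were Rps6kb2, an S6 kinase, at 0.68 ± 0.10 (adjusted p = 0.000363), and Lamtor4, of the lysosomal Ragulator complex, at 0.45 ± 0.06 (adjusted p = 0.000156). Between KO and WT 0 of 39 passed with limma in any of the 3 comparisons, and at an unadjusted p under 0.05 there were 2 in effector cells, 3 in memory cells and 5 over both, near or under the same shares of all genes.

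Genes of the amino acid shortage response under the kinase GCN2 and ATF4 were measured in 32 of 33 cases, and 0 passed with limma between KO and WT in either subset or over both (4, 2 and 3 at an unadjusted p under 0.05 in effector cells, memory cells and over both, beside 9.32%, 11.3% and 13.9% of all genes). Their median over both subsets was 0.00, against 0.02 for all genes. In effector KO against effector WT 16 of the 32 were higher and 16 lower, with a median of 0. Among the higher ones there, Ppp1r15a, which restarts translation, was at 0.82 ± 0.31, Ddit3 at 0.61 ± 0.19 and Atf4 at 0.23 ± 0.08 (SE, limma adjusted p = 0.472, 0.442 and 0.472). Asns, the asparagine synthetase, had means of 5.93 in memory KO and 6.40 in memory WT (-0.47 ± 0.22, adjusted p = 0.429). In effector against memory cells 0 rose and 4 fell, 12.5% of the list beside 12.2% of all genes, among them Shmt2 of serine metabolism at -0.34 ± 0.08 (adjusted p = 0.0138) and the tryptophanyl-tRNA synthetase Wars at -0.35 ± 0.09 (adjusted p = 0.0162). Of 18 measured aminoacyl-tRNA synthetase genes, which load amino acids onto tRNA, 13 were lower in effector cells, 4 of them (22.2% of the list) past the test, and 0 passed as higher. All 18 had a mean above the median of all genes, and such genes passed at a higher share than 12.2%.

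Among genes that use what the transporters bring in, 0 passed with limma between KO and WT. Over both subsets 3 of the glutathione, 2 of the glutamine and arginine and 3 of the aromatic amino acid genes had an unadjusted p under 0.05, near the 13.9% of all genes that did. In effector against memory 15.8%, 10.5% and 20% of these lists passed, beside 12.2% of all genes. Of 19 measured glutathione and cystine genes 3 fell in effector cells, among them Gclm, a subunit of the enzyme that starts glutathione synthesis (-0.58 ± 0.09 SE, limma adjusted p = 0.000528), and Gpx1, a glutathione peroxidase (-0.49 ± 0.06, adjusted p = 8.48e-05). Of 19 glutamine and arginine genes Gfpt1, which feeds glutamine nitrogen into hexosamines, rose (0.44 ± 0.09, adjusted p = 0.00309), and Glul, the glutamine synthetase, fell by 0.30 (SE 0.06, adjusted p = 0.00401). Of 20 genes of aromatic amino acid use 2 rose and 2 fell. Afmid, of the kynurenine pathway, was at 0.45 ± 0.09 (adjusted p = 0.00394), and Ido1, a tryptophan dioxygenase, at 0.42 ± 0.10 (adjusted p = 0.0136) on a signal above the median on 9 arrays. The 2 that fell were Ddc, at -0.35 ± 0.10 (adjusted p = 0.0223), and Kmo, also of the kynurenine pathway, at -0.36 ± 0.11 (adjusted p = 0.0347). Kmo lay above the median on 1 array.

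The transcription factor Myc, known to raise amino acid transporters in T cells, had means of 7.62 in effector KO and 7.85 in effector WT, against 8.69 in memory KO and 8.52 in memory WT. It fell in effector cells (-0.87 ± 0.15 SE, limma adjusted p = 0.000997), while Mxd4, a factor that competes with Myc for Max, rose (0.87 ± 0.11, adjusted p = 4.94e-05). In all, 4 of 13 genes of this group rose and 2 fell, 46.2% of the list beside 12.2% of all genes. Of the 13, 11 had a mean above the median of all genes. Of 38 measured cell cycle genes, all with such a mean, 12 (31.6%) rose and 0 fell in effector cells, with a list median of 0.47. That gap lay mostly in KO. The list mean was 7.97 in effector KO and 7.21 in memory KO, against 8.04 in effector WT and 7.9 in memory WT. For the difference of the KO effects between subsets 37 of the 38 were higher, with a median of 0.68, and 0 passed. Brighter genes passed at a higher share than 12.2%, as given above. In memory KO all 38 were lower than in memory WT, with a median of -0.79, and 0 passed with limma (29 at an unadjusted p under 0.05, beside 11.3% of all genes). Averaged over the list, memory KO 1 to 4 read 6.77, 7.43, 7.95 and 6.69, against 7.72 to 8.02 in memory WT. The part of the cell cycle genes in the Slc1a5 difference was not tested.

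The remaining lists held genes used as markers of other spleen cells. Of 8 measured NK cell genes 2 rose (Eomes and Nkg7) and 2 fell (Klrb1c and Ncr1) in effector against memory cells. Eomes and Nkg7 lay above the array median on all 16 arrays, Klrb1c on 11 and Ncr1 on 3. Of the CD4 T cell genes 1 rose (Ctla4) and 1 fell (Il2ra), both above the median on all 16 arrays. Whether the CD8 T cells themselves gave these signals was not tested. Of the platelet and erythroid genes 0 passed. Of 16 B and CLL cell markers 12 fell in effector cells, with a list median of -0.86, and of 17 myeloid markers 7 fell and 1 rose. The genes that passed were 50% of the NK, 28.6% of the CD4 T cell, 75% of the B and CLL and 47.1% of the myeloid list, beside 12.2% of all genes. Slc1a5 rose and Slc7a1 fell in that same comparison, and the part of these cells in both was not tested.

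**Figure D5:**
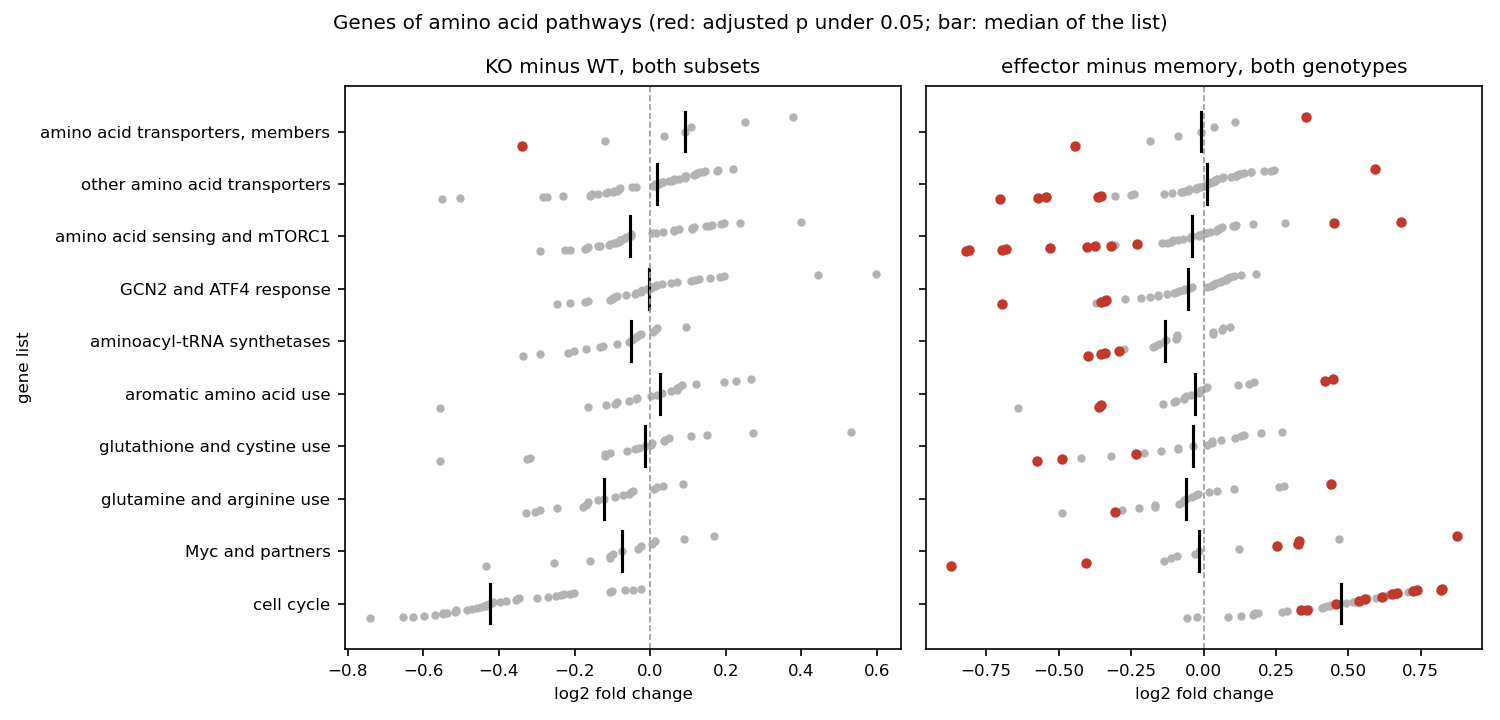
Log2 fold changes of the transporter genes, the 8 amino acid and Myc lists and the cell cycle list for KO minus WT over both subsets and for effector minus memory over both genotypes; a point is a gene, red points passed an adjusted p of 0.05 over all genes, and bars are list medians. Among the genes of these lists the 1 red point between KO and WT is Slc1a5, and between the subsets red points lie on both sides in several lists.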

How the data were processed

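Spleen CD8 T cell RNA, 1 ng a sample, went through the GeneChip WT Pico reagents to biotin-labelled cDNA, per the labels' protocols. The authors deposited 1 value per array for each of 41345 probe sets, which were taken as log2 expression from their range; how they were normalized is not stated there. Of these, 23521 probe sets carried exactly 1 symbol. Where a gene had several, its brightest probe set by mean signal was kept, leaving 22180 genes. Precision can be judged from the 16 arrays alone.

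A linear model with a mean for every group was fitted with limma 3.58.1 (R 4.3.3), leaving 12 residual degrees of freedom (prior 4.23), and p-values, two-sided, were adjusted by Benjamini-Hochberg across all genes, with a threshold of 0.05. The 5 contrasts were the KO effect in each subset, its mean, its difference between subsets, and effector minus memory. Permutation tests enumerated 70 arrangements within a subset and 4900 over both strata. In data simulated on 22180 genes, changes of 0.5 were called in 79.1% of cases for the mean KO effect, in 40.3% for effector and in 31.3% for memory cells. Each simulation changed 67 genes by 0.5, 67 by 1 and 66 by 2, with independent noise for every sample. In the data only 43, 12 and 25 genes passed in these comparisons. More changed genes make the adjusted threshold easier to reach, so the rates may overstate what these data could detect.

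The transporter genes and the 16 other lists were chosen with earlier results of these data known. From each list the rule names up to 4 genes with the smallest p per comparison and every gene that passed, and the text draws its examples from these; for each transporter it adds the 5 genes of highest correlation. The 38 listed tRNA synthetase symbols include older and newer names of the same genes. Alternatives were other scalings, a filter on dim genes, other treatments of several probe sets, a variance prior with trend, fits of fewer groups, blocks by replicate number (1, with random pairs, chosen after seeing the data) and leaving out each array.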

Additional observations from a re-analysis of the deposited data

Results flagged for a closer look

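Of 36 groups of 4 samples (7 transporter genes and 2 further probe sets in 4 groups), 3 held a sample whose gap to the nearest other exceeded the 95% critical share of its group's range (Dixon); chance gives about 1 in 20. Slc1a5 on its dimmer probe set had 6.57 in effector KO 4, with the nearest effector KO sample at 5.41. Without that sample the mean of this probe set in effector KO was 5.35 ± 0.06 (SD, n = 3), against 5.15 ± 0.01 in effector WT (SD, n = 4), so it still lay on the other side of WT than the brighter probe set. Slc7a1 had 7.55 in memory WT 4, with the nearest of its group at 7.83. The dimmer probe set of Slc7a11 had 2.68 in memory KO 3, with the nearest at 2.01, both under the array medians.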

How the results depend on the processing

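Of the 303 alternative values of single transporters other than those that leave out an array, 295 kept direction and side of the threshold. With an array's median subtracted, the difference of KO effects between subsets was 0.00 for Slc3a2, 0.01 for Slc7a11 and 0.01 for Slc7a6. With all probe sets of a gene averaged, Slc1a5 was at 0.06 in effector cells, 0.12 for the difference of effects and 0.00 over both subsets, Slc7a11 at 0.01 for the difference, and 0 transporters passed in KO against WT and 1 in effector against memory. Over all genes, 96 passed in KO against WT over both subsets when only genes above the median were tested, 1 for the difference of effects with every probe set kept, and 4 and 7 in effector and memory cells when only the groups compared were fitted. With the replicate number as a block across groups, 29 passed in effector cells, 104 in memory cells and 389 over both. Same-numbered effector and memory samples of a genotype correlated in their deviations at 0.02 to 0.24 (7 of 8 best with their own number), and KO and WT samples at -0.03 to 0.14 (4 of 8). Not every pair passed 0.1, so the fit without a block was kept, although a shared animal for the subsets of a number is a possibility that the labels leave unstated. With effector and memory samples of a number as a random block, chosen after seeing the data (correlation 0.0623), 36 genes passed in KO against WT over both subsets. The blocks changed the call of no transporter. Leaving out 1 array gave 4 (without effector WT 1) to 42 genes (without effector KO 2) in effector cells, 11 (without memory KO 4) to 249 (without memory KO 3) in memory cells, 0 to 5 for the difference, 23 (without memory WT 1) to 329 (without effector KO 2) over both, and 0 to 1 transporters there. Values that changed sign in such fits ranged in effector cells from -0.09 to 0.13 (Slc3a2) and -0.01 to 0.17 (Slc7a11). In memory cells they ranged from -0.01 to 0.11 (Slc3a2), -0.14 to 0.02 (Slc7a1) and -0.05 to 0.28 (Slc7a6). For the difference of effects they ranged from -0.03 to 0.18 (Slc7a5), -0.14 to 0.08 (Slc3a2), -0.22 to 0.06 (Slc7a1), -0.12 to 0.06 (Slc7a11) and -0.18 to 0.14 (Slc7a6). Over both subsets Slc3a2 ranged from -0.02 to 0.09, and in effector against memory Slc7a11 from -0.01 to 0.08 and Slc38a2 from -0.08 to 0.05. The causes were not tested. With 4 arrays a group and no detection calls, small differences and dim genes such as Slc7a11 are the least certain.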
